A study of Mus musculus with 36 samples.

Results

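Mt1 and Mt2 encode the metallothioneins I and II, small cysteine-rich proteins that bind zinc and copper and can take up cadmium. They are 2 of 49980 genes with coordinates in the RefSeq table of mouse assembly GRCm38.p6, the assembly also called mm10, and lie beside each other on chromosome 8. The measurement is the position of the TATA-binding protein (TBP) on chromatin, by CUT&RUN, in which a nuclease tethered to an antibody releases the DNA around the bound protein. All TBP summits from 10 kb before Mt2 to 10 kb after Mt1 were taken from each of 4 deposited lists, and they numbered 11 of 9335 summits in all. The genes were chosen with the summits of these lists in view, so their presence, absence and scores are given as a description, with no test.

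The lists came from mouse embryonic stem (ES) cells of the lines RT7 and RT10, as 4 groups. RT7 4-OHT cells and RT7 EtOH cells had the genotype R26CreERT2/+;Taf7flox/flox, and RT10 4-OHT cells and RT10 EtOH cells R26CreERT2/+;Taf10flox/flox. In all of them 1 Rosa26 allele carried CreERT2, a Cre recombinase that acts once 4-hydroxytamoxifen (4-OHT) is present, and both alleles of Taf7 or of Taf10 were floxed. 4-OHT, which induces the deletion, or its ethanol (EtOH) vehicle was given from day 1 to day 3 of culture, in medium with leukaemia inhibitory factor and the inhibitors CHIR99021 and PD0325901. Each genotype was represented by 1 line, so the deleted gene and the line cannot be told apart. Each group had 2 TBP libraries and 1 IgG control library, per the labels, and 1 list with no replicate number. The series held 36 libraries; those for TAF7, TAF10 and TAF12 were not used here, and the loss of the deleted subunit could not be checked from TBP summits.

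TFIID is made of TBP and its associated factors, the TAFs, and brings TBP to promoters of RNA polymerase II; Taf7 and Taf10 each encode one of these factors. Metallothionein genes are a classic case of inducible transcription: in mouse cells the zinc-sensing factor MTF-1 binds metal response elements in their promoters when zinc or cadmium rises. Glucocorticoids and oxidative stress also raise their transcripts. In many tissues Mt1 and Mt2 are expressed together, whereas Mt3 is known from the brain and Mt4 from stratified epithelia.

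The promoter windows of both genes are shown because TBP summits lay at Mt1 within its window and because both windows hold several copies of the core of the metal response element. Each is the RefSeq window of 250 bases before to 50 bases after an annotated start, on the plus strand of GRCm38.p6, 5′ to 3′. Capitals mark TGCGCNC or TGCACNC on either strand. The Mt1 window is chr8:94178839-94179138 and the Mt2 window chr8:94172368-94172667.
Mt1: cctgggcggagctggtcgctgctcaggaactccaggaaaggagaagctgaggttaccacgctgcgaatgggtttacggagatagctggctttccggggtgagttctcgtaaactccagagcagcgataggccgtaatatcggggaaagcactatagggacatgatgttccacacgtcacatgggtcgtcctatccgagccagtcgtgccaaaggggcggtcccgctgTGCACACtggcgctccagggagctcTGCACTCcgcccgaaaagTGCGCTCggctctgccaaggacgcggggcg
Mt2: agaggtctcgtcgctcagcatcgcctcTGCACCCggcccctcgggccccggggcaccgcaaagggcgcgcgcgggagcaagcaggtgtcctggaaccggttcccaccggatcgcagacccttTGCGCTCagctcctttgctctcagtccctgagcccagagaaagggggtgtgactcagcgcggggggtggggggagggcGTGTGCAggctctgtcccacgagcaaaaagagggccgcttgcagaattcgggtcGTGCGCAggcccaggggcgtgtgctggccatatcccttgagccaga

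The Mt1 window held 3 such cores, and 1.97% of the 32851 promoter windows of the table held as many or more. The Mt2 window held 4, and 0.517% of windows held as many or more. TGCGCNC alone occurred in 15.4% of all windows and TGCACNC in 12.6%. The windows of Mt3 and Mt4 held 1 core each, and 25.7% of windows held 1 or more. GGGCGG, a core bound by Sp1 and its relatives, occurred on either strand at 3 places in the Mt1 window and at none in that of Mt2 (35.7% of all windows), and TGACNNNGC, a core of the antioxidant response element, at 1 place in the Mt2 window (12.4% of all windows). TATAAA was found in neither window, on either strand, although it stood in that of Mt4, 30 bases before the annotated start (13.6% of all windows). A match of letters is not a binding site, and the lack of one says only that these letters are not in this window. The Mt1 window rests on an annotated start at position 94179089, 206 bp inside the gene's lower end in the table (94178883 to 94180327). Mt1 has 2 RefSeq transcripts but 1 promoter window, and distances from its annotated start refer to the start of that window alone. Starts of transcription in these cells were not measured here. If Mt1 or Mt2 is transcribed from a start past the annotated one, its core promoter reaches beyond the window, and that sequence was not read.

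TBP summits stood at Mt1 in 3 of the 4 lists, within 33 bp of each other, and no summit stood anywhere in the locus in RT10 4-OHT cells. Both EtOH lists also had a summit inside Mt2 and further summits past Mt1, at and beyond Gm39228, an uncharacterised long noncoding RNA gene. In the RT7 4-OHT list the Mt1 summit remained and no summit lay inside Mt2. The window of 27710 bp held 3 summits in RT7 4-OHT cells and 4 in RT7 EtOH cells. It held 0 in RT10 4-OHT cells and 4 in RT10 EtOH cells.

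**Figure D1:**
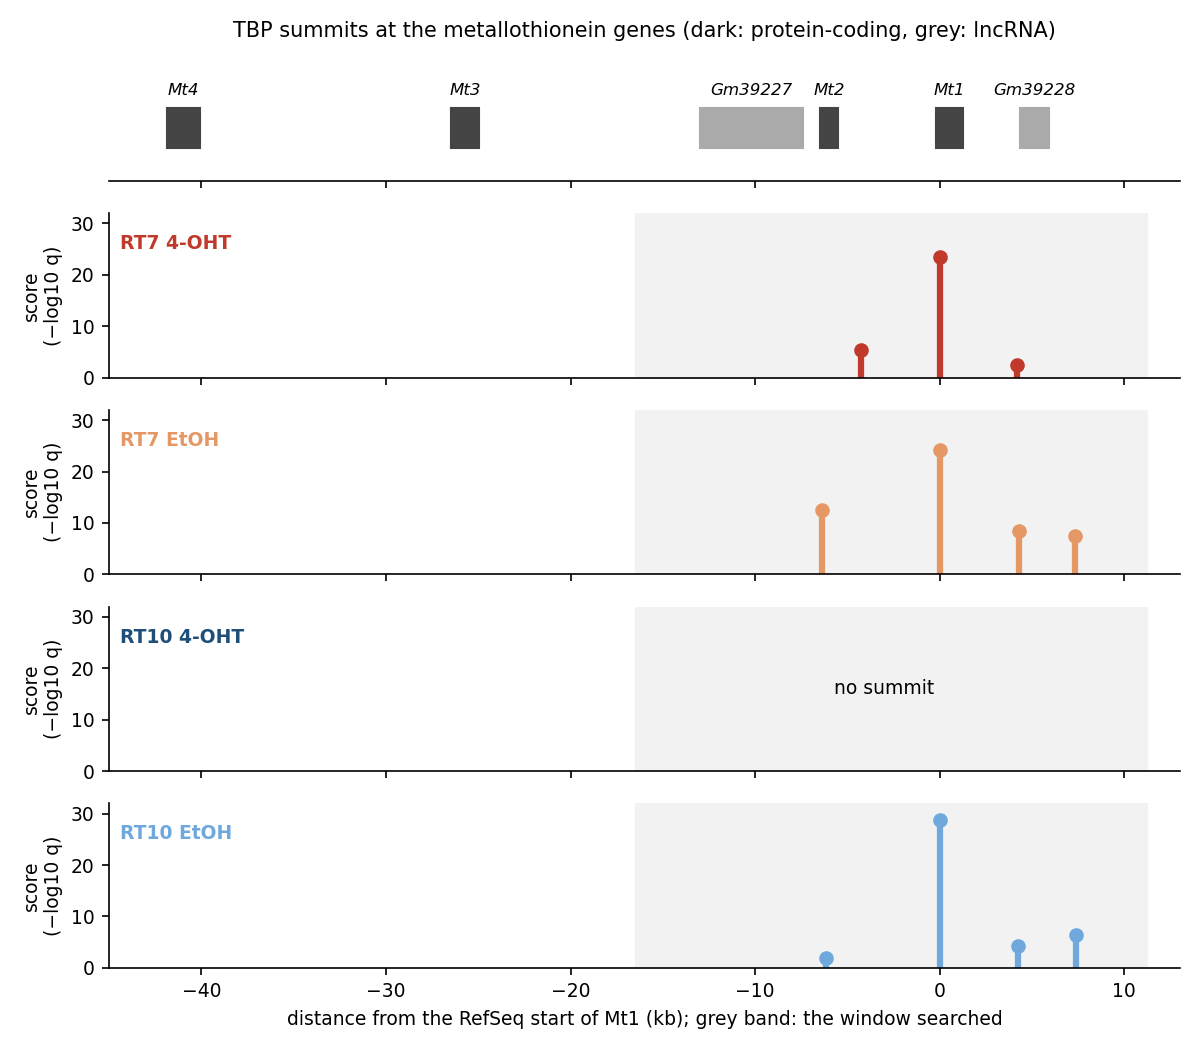
TBP summits across the metallothionein genes, with the distance from the annotated Mt1 start in kb on the horizontal axis and the deposited score (−log10 q) on the vertical axis, 1 panel per list; the top panel shows gene bodies. The tallest summit of RT7 4-OHT (23.5), RT7 EtOH (24.1) and RT10 EtOH (28.8) stands at Mt1, and the RT10 4-OHT panel has none.

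The score of a summit is the −log10 of the q-value that the authors' peak caller gave for TBP over IgG, and serves here to rank a summit within its own list. Mt1 had a score of 23.5 in the RT7 4-OHT list, rank 84 of 1379, against 24.1 in the RT7 EtOH list, rank 220 of 2666. It had no summit in the RT10 4-OHT list of 2188, against a score of 28.8 in the RT10 EtOH list, rank 203 of 3102. As percentiles these ranks were 93.9 in RT7 4-OHT, 91.8 in RT7 EtOH and 93.5 in RT10 EtOH. Mt1 was thus among the higher-scoring summits wherever it was called. The lists differ in length, so a difference of rank between them shows no gain or loss of signal.

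The summits at Mt1 are shown on the sequence around them, chr8:94179062-94179135 (GRCm38.p6, plus strand), because their positions nearly coincide. Capitals mark, from left to right, the summit bases of the RT10 EtOH, RT7 4-OHT and RT7 EtOH lists.
Mt1 summits: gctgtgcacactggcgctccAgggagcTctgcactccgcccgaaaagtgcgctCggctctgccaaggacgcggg

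The RT7 4-OHT summit lay at position 94179089, on the annotated start of the promoter window itself, and the RT7 EtOH summit at 94179115, 26 bp past it. The RT10 EtOH summit lay at 94179082, 7 bp before the start. All 3 lay inside the Mt1 gene body as the table gives it, 199 to 232 bp from its lower end; the table gives no exons. The 3 metal response element cores of the Mt1 window span positions 94179066 to 94179115 and thus the same stretch as the summits. A summit marks the highest point of a peak and does not resolve single bases.

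Around Mt1 the lists named the same other places in EtOH cells of both lines. The Mt2 summit of RT7 EtOH cells (score 12.6, percentile 78.2) lay at position 94172698, 80 bp past the annotated start of Mt2 (94172618 to 94173567). That of RT10 EtOH cells (2.00, percentile 4.30) lay at 94172945, 327 bp past the start. These positions were 247 bp apart, just inside the 250 bp within which summits of different lists were called shared. Mt2 thus had a summit well above the middle of one EtOH list and near the lower end of the other, whereas Mt1 stood at 91.8 and 93.5.

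No summit lay within 500 bp of Mt2 in either 4-OHT list. The nearest in RT7 4-OHT cells (5.46, percentile 48.9) lay at position 94174829, between the genes, 1262 bp past the upper end of Mt2 and 4054 bp before Mt1. It was 2131 bp from the Mt2 summit of RT7 EtOH cells, and no other list had a summit within 1000 bp of it.

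Past Mt1, a summit stood before the lower end of Gm39228 (94183419 to 94184982) in the same 3 lists as at Mt1. It lay at position 94183245 in RT7 4-OHT cells (2.50, percentile 12.7) and at 94183384 in RT7 EtOH cells (8.42, percentile 65.1). In RT10 EtOH cells it lay at 94183309 (4.17, percentile 33.9). These are 174, 35 and 110 bp before the gene's lower end. A further summit stood past the upper end of Gm39228 in the EtOH lists alone, at 94186402 in RT7 (7.45, percentile 60.3) and at 94186459 in RT10 (6.35, percentile 51.6), 57 bp apart and 1420 and 1477 bp beyond that end. Every one of these flanking summits ranked below Mt1 in its own list.

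**Figure D2:**
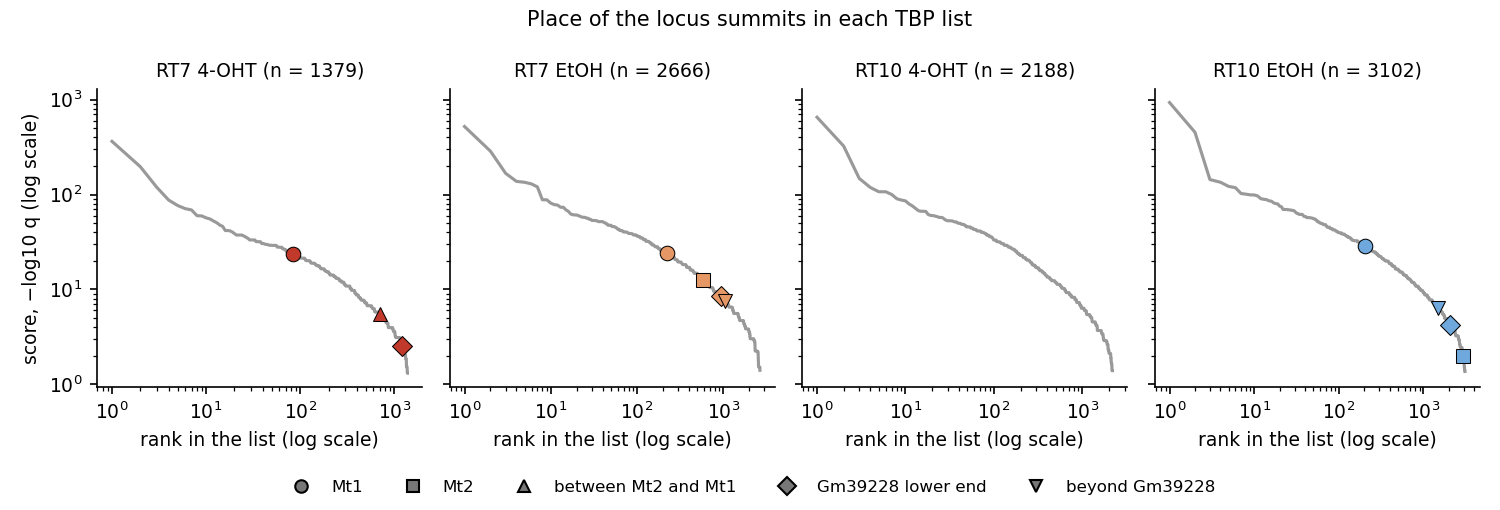
Score (−log10 q, log scale) against rank (log scale) of all summits of each TBP list as a grey line, with the summits of the metallothionein locus as symbols. Mt1 (circles) stands at rank 84 in RT7 4-OHT, 220 in RT7 EtOH and 203 in RT10 EtOH, left of every other symbol of its list, and RT10 4-OHT has no symbol.

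Deletion of Taf7 and of Taf10 was set against the EtOH cells of the same line by the share of EtOH summits with a 4-OHT summit within 250 bp. In RT7, 2 of the 4 EtOH summits of the locus had such a partner, those at Mt1 (26 bp away) and before Gm39228 (139 bp away). In RT10, 0 of 4 had one. Across the whole lists, 61.3% of RT7 EtOH summits and 51.9% of RT10 EtOH summits lacked a 4-OHT summit, with exact 95% binomial intervals of 59.4 to 63.1 and 50.1 to 53.7 that cover counting error only. A missing partner was thus common in both lines. In the other direction 2 of the 3 RT7 4-OHT summits of the locus had an RT7 EtOH partner, and 25% of all RT7 4-OHT summits had none. The locus was chosen for the contrast between these lists, so nothing is read from its own counts, and the difference between the lines was not tested.

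High-scoring summits seldom lacked a partner. In RT10, 203 EtOH summits scored at least as high as Mt1, and 17 of them, or 8.37% (exact interval 4.95 to 13.1), had no 4-OHT summit within 250 bp. Of the 17, 7 were left at 1000 bp and 2 at 5000 bp. Those 2 were Mt1, whose nearest RT10 4-OHT summit was 142047 bp away, and a summit on the X chromosome at position 128363678 (score 42.3) that is not within 500 bp of a gene end. Mt1 was chosen from these lists and sets the score minimum, so its place among the 2 is a description only. The summits directly above and below Mt1 in the RT10 EtOH order, on chromosome 2 (28.9) and at Arf2 (28.7), had a 4-OHT summit 12 and 28 bp away.

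In RT7, 220 EtOH summits scored at least as high as Mt1, and 18 of them (8.18%, exact interval 4.92 to 12.6) lacked a 4-OHT summit within 250 bp. Mt1 was not among these. Of the 18, 7 were left at 1000 bp and 3 at 5000 bp. Those 3 stood at Hnrnpc and Rpgrip1 (26.8), at Txn1 (26.8) and on chromosome 1 (24.3). Their nearest RT7 4-OHT summits were 1.01e+06, 114391 and 93546 bp away. The neighbours of Mt1 in that order, a summit on chromosome 8 (24.2) and one at Cactin (24.0), had partners 23 and 95 bp away. In the RT7 4-OHT order Mt1 stood between a summit on chromosome 7 (23.5) and one at the histone genes H2ac8 and H2bc8 (23.5), with EtOH partners 18 and 11 bp away.

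**Figure D3:**
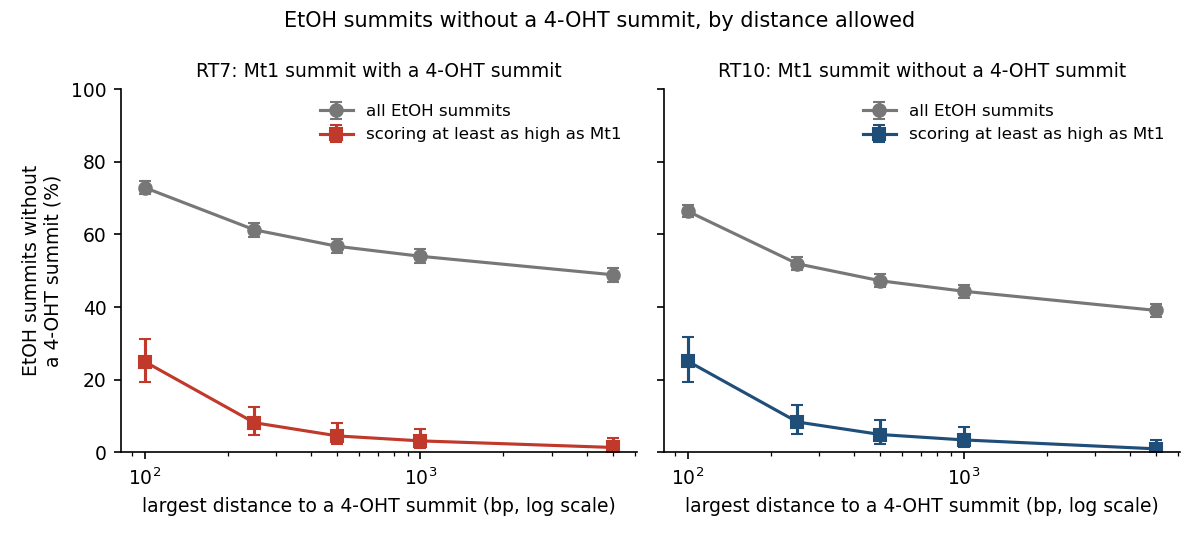
Share of EtOH summits without a 4-OHT summit (percent, with exact 95% intervals as bars) against the largest distance allowed (bp, log scale), for all summits in grey and for those scoring at least as high as Mt1 in colour. In RT10 the coloured line ends at 0.985% at 5000 bp, a share that comes to 2 summits with Mt1 as one of them. In RT7 it ends at 1.36%, or 3 summits, and Mt1 has a 4-OHT summit at every distance plotted. Mt1 was chosen from these lists and sets the score minimum of the coloured lines.

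The RT10 4-OHT list had summits on either side of the locus. Its nearest summits were at position 94037035 (score 2.30), 135583 bp before Mt2, and at 94601878 (8.73), 421551 bp past Mt1, near ends of Psme3ip1 and Rspry1. The second place had a summit in all 4 lists, with scores of 5.88 in RT7 4-OHT, 6.79 in RT7 EtOH, 8.73 in RT10 4-OHT and 15.5 in RT10 EtOH. The stretch without a summit in RT10 4-OHT cells was 564843 bp long. Distances at least that long separated 738 of the 2166 pairs of neighbouring summits in that list, or 34.1%, with a median of 167352 bp, so the length alone does not set the locus apart. Where a list has no summit, no peak passed the authors' threshold, which can also happen with TBP present at a lower level. The read depth behind the lists is unknown. By its title, the IgG library of the RT10 4-OHT list carries a treatment label that gives the other treatment, as does that of the RT7 EtOH list.

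In EtOH cells the lines had the locus in common. All 4 RT7 EtOH summits had an RT10 EtOH summit within 250 bp, at distances of 247 bp (Mt2), 33 bp (Mt1), 75 bp (before Gm39228) and 57 bp (beyond it). In the whole lists 35% of RT7 EtOH summits lacked an RT10 EtOH partner. Between the 4-OHT lists 0 of the 3 RT7 summits were shared, which follows from the lack of any RT10 4-OHT summit in the window. In the whole lists 31.8% of RT7 4-OHT summits had no RT10 4-OHT partner. The Mt1 summit of RT7 4-OHT cells lay 7 bp from that of RT10 EtOH cells.

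The other members of the family had no summit. Mt3 (94152607 to 94154148) and Mt4 (94137204 to 94139031), on the same strand before Mt2, lay outside the window searched, and neither had a summit within 500 bp of an end in any list. Nor had the other neighbours within 100 kb, which were Bbs2 and Nup93, Gm39226 and Gm39227, and the pseudogene Rpl10-ps5. Of all 21900 protein-coding genes, 2.73% had a summit within 500 bp of an end in RT7 4-OHT, 5.31% in RT7 EtOH, 3.85% in RT10 4-OHT and 5.95% in RT10 EtOH, so a gene without one is the common case.

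The presence of Mt1 in RT7 4-OHT, RT7 EtOH and RT10 EtOH but not in RT10 4-OHT was found for 61 protein-coding genes, itself included, or 3.56% of the 1714 with a summit in at least 1 list. The presence of Mt2, in both EtOH lists and neither 4-OHT list, was found for 210 genes (12.3%), and 425 had a summit in all 4 lists. Likeness to Mt1 was measured as the Euclidean distance between percentiles over the 4 lists, with 0 for no summit. Slbp, which encodes the protein that binds the stem loop of histone mRNA, was nearest (distance 22.0 percentile points), with percentiles of 72.3 in RT7 4-OHT, 88.3 in RT7 EtOH, none in RT10 4-OHT and 91.5 in RT10 EtOH. Hnrnpul2 and Ttc9c (26.0 each), which share their summits, followed, and unlike Mt1 had a summit in RT10 4-OHT, at percentile 14.0. Hsd17b12 (27.2), an enzyme of fatty acid elongation, and Ell (27.9), an elongation factor of RNA polymerase II, had none there.

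Genes of the responses in which metallothioneins take part were looked up for comparison, in lists picked by role with earlier results of these data known. None of the lists was matched to other genes by expression, so a share above that of all genes is a description only. Among 33 genes of zinc and metal handling, 2 had a summit in RT7 4-OHT and 1 in RT7 EtOH, and 1 in RT10 4-OHT and 3 in RT10 EtOH. In the same order of lists these are 6.06%, 3.03%, 3.03% and 9.09% of the 33. Of all protein-coding genes, 2.73%, 5.31%, 3.85% and 5.95% had a summit. The metal handling genes with a summit were thus few in every list, as for protein-coding genes at large. Ftl1, the ferritin light chain, had one in all 4 lists (percentiles 52.8 in RT7 4-OHT, 69.4 in RT7 EtOH, 68.9 in RT10 4-OHT and 85.6 in RT10 EtOH). Slc39a9, of the ZIP family of zinc transporters, had one in RT7 4-OHT (39.7) and RT10 EtOH (63.6), and Slc39a3, of the same family, in RT10 EtOH alone (16.5). Mtf1, which encodes MTF-1, and Slc30a1, a zinc exporter and known target of MTF-1, had none.

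Among 20 genes of the oxidative stress response, 6 had a summit in RT7 4-OHT and 7 in RT7 EtOH, and 6 in RT10 4-OHT and 8 in RT10 EtOH. In the same order of lists these are 30%, 35%, 30% and 40% of the list, beside 2.73%, 5.31%, 3.85% and 5.95% of all protein-coding genes. The difference was not tested, and the list was not matched to those genes by expression. Nqo1, a quinone reductase, stood at percentiles of 90.8 in RT7 4-OHT, 93.4 in RT7 EtOH, 91.2 in RT10 4-OHT and 98.4 in RT10 EtOH. Like Mt1 it stood high in each list that had it, but it was called in all 4. Sqstm1, an autophagy receptor, Prdx1, a peroxiredoxin, and Sod1, a superoxide dismutase, were also present in all 4. Gpx1, a glutathione peroxidase, had the same presence as Mt1, at percentiles of 66.9 in RT7 4-OHT, 60.3 in RT7 EtOH and 84.3 in RT10 EtOH. Txn1, thioredoxin, and Nfe2l2, which encodes the factor NRF2, were called in all lists but RT7 4-OHT. Hmox1, haem oxygenase, was called in RT7 4-OHT (60.8) and RT10 EtOH (12.6).

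Of 9 glucocorticoid-responsive genes, 2 had a summit in RT7 4-OHT and 3 in each of the other lists, or 22.2% and 33.3%, where 2.73% of all protein-coding genes had one in RT7 4-OHT and 3.85% to 5.95% in the others. Per1, a clock gene, stood at percentiles of 84.3 in RT7 4-OHT, 98.9 in RT7 EtOH, 94.5 in RT10 4-OHT and 96.3 in RT10 EtOH. Dusp1, a phosphatase of MAP kinases, was likewise present in all 4 lists, and Klf9, a transcription factor gene, lacked a summit in RT7 4-OHT. In RT10 4-OHT cells, where Mt1 and Mt2 had no summit, these 3 had one, and the rest of the 9 had none in any list. Among the oxidative stress genes named above, Gpx1 and Hmox1 also lacked one in RT10 4-OHT. Of 9 genes known from ES cells, 4 had a summit in RT7 4-OHT and 6 in RT7 EtOH. In RT10, 4 had one in 4-OHT and 7 in EtOH, beside those same shares of all genes. TBP summits do not give their expression, and genes of other cell types were not looked up. The counts therefore do not check the labelled cell type.

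**Figure D4:**
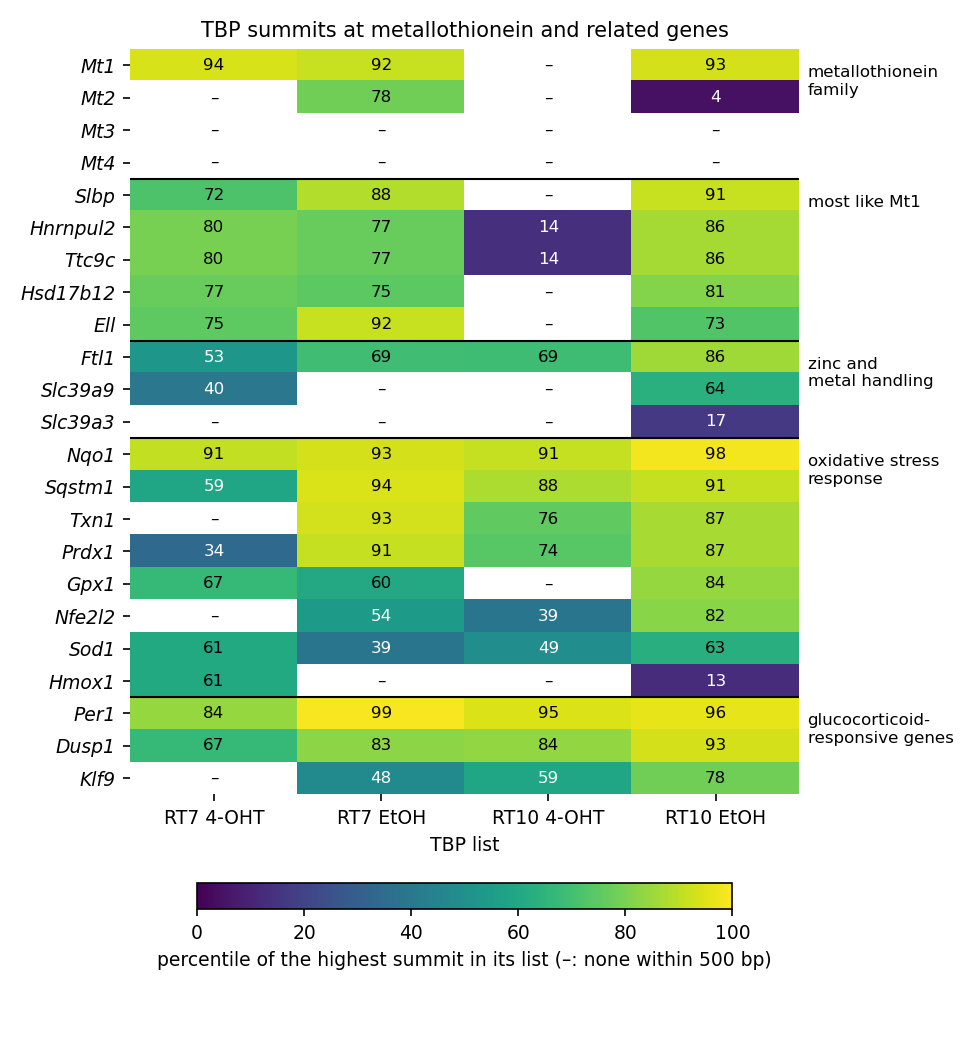
Percentile of the highest TBP summit within 500 bp of either end of a gene (columns: the 4 lists; colour and number: percentile in that list; dash: no summit), for the metallothionein family, the 5 genes most like Mt1 and the members of the fixed lists with a summit. Mt1 stands at 93.9, 91.8 and 93.5 and has a dash in RT10 4-OHT, where Nqo1 (91.2) and Per1 (94.5) have a summit and Gpx1 and Hmox1 have none.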

How the data were processed

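TBP was profiled by CUT&RUN in the ES cell lines RT7 and RT10, per the labels. The submitters' processing notes name cutadapt 4.0, Bowtie2 2.4.4, SAMtools 1.15.1, MACS2 2.2.7.1, bedtools, deepTools and mm10, without roles or parameters. Each deposited value is a −log10 q-value of TBP over IgG at a summit, as the peak names and values show; the lowest was 1.30, near the −log10 of 0.05. The sources used here do not say whether the 2 libraries of a group were pooled or how the yeast spike-in entered. For 2 IgG libraries, RT7 EtOH and RT10 4-OHT by title, the treatment label gives the other treatment; the titles, which the peak names follow, decided.

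Summits were ranked within a list (average rank for ties), and a percentile is the share of the list below the midpoint of a summit and its ties. Partners lay within 250 bp, and gene ends within 500 bp. With 1 list per group and no depth, no test was run. Members and lists were chosen with earlier results of these data known. Genes named were Mt1 to Mt4, the neighbours, list members with a summit, the 5 most like Mt1 and those next to it by score; others, such as the X chromosome summit, were singled out after their values were seen. Exact Clopper-Pearson 95% intervals cover counting error only. Positions and sequences are RefSeq's (GRCm38.p6); all 4 family members had a promoter window. Alternatives were other windows, distances, score minimums, tie rules and list lengths. Python 3.11.15, pandas 2.3.3, NumPy 2.4.6, SciPy 1.17.1 and matplotlib 3.10.9 were used. The matching code was run on copies of the EtOH lists with some summits dropped and the rest moved by less than 250 bp. That run checks the code and not the choice of distance.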

Additional observations from a re-analysis of the deposited data

How the results depend on the processing

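Mt1 had a 4-OHT summit in RT7 and none in RT10 at every distance from 100 to 5000 bp, with the EtOH lists shortened and with scores of at least 10. Locus counts did not change with windows of 20 or 50 kb; at 5 kb the summit beyond Gm39228 drops out, which leaves 3 in RT7 EtOH and 3 in RT10 EtOH, with RT7 4-OHT (3) and RT10 4-OHT (0) as before. With scores of at least 10 the locus held 1 summit in RT7 4-OHT, 2 in RT7 EtOH, 0 in RT10 4-OHT and 1 in RT10 EtOH, and the percentile of Mt1 among the remaining summits was 76.1, 71.3 and 77.8 in the 3 lists that had it; fewer summits are ranked then. Of the 4 RT7 EtOH summits, 1 had a partner at 100 bp, 4 at 5000 bp, where the Mt2 summit is matched to the one between the genes, and 1 with scores of at least 10. With all lists shortened to the length of the shortest, 1 RT7 EtOH summit, rather than 4, was shared with RT10 EtOH. The Mt2 summit of RT10 EtOH is lost at a gene end distance of 250 bp or with scores of at least 10, and Mt2 gains one in RT7 4-OHT at 2000 bp. The share of all EtOH summits without a 4-OHT summit moved between 43.2% and 72.9% in RT7 and between 39.1% and 66.4% in RT10. Of the 5 genes most like Mt1, 3 were also named at a gene end distance of 1000 bp, and 3 have its presence in the lists. Clusters of EtOH summits without a 4-OHT summit, 0 in RT7 and 1 in RT10, numbered 1 and 0 with summits at most 5 kb apart and 6 and 4 with at least 3 summits. Of 64 counts of the fixed lists under other settings, 51 stayed within 1.5 times. No paired analysis was possible because the lists carry no replicate number, and for the same reason no replicate could be left out.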

Other observations

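Runs of at least 4 EtOH summits with at most 10 kb from each to the next were counted after the data had been seen. RT10 had 43 such clusters and RT7 had 41. In RT10, 1 cluster had no 4-OHT summit within 10 kb, and it was that of Mt2, Mt1 and Gm39228, with 0 of its 4 summits matched. In RT7, 0 clusters were without one. With summits at most 5 kb apart the count was 0 of 25 clusters in RT10, where the metallothionein summits no longer form one cluster of that size, and 1 of 30 in RT7. At 20 kb it was 1 of 71 in RT10, again the metallothionein cluster, and 0 of 59 in RT7. With at least 3 summits it was 4 of 129 in RT10, that cluster included, and 6 of 92 in RT7. With at most 10 kb and at least 4 summits, 1 RT7 cluster, at Usp48, also had 0 of its 5 summits matched. A 4-OHT summit lay within 10 kb of it. The locus was chosen from these lists, so the counts describe them and test nothing.

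Genes whose promoter window lacks TATAAA on the gene's strand numbered 15775. They had a summit in 2.76% of cases in RT7 4-OHT (exact 95% interval 2.51 to 3.03) and 5.60% in RT7 EtOH (5.24 to 5.97). They had one in 3.98% (3.68 to 4.30) in RT10 4-OHT and 6.38% (6.0 to 6.77) in RT10 EtOH. The 1717 genes with TATAAA had one in 4.25% (3.35 to 5.32) in RT7 4-OHT and 5.77% (4.71 to 6.98) in RT7 EtOH. For RT10 the values were 5.36% (4.34 to 6.53) in 4-OHT and 6.46% (5.35 to 7.73) in EtOH. The difference between these classes was not tested. The classes rest on annotated starts. By these starts alone Mt1 and Mt2 fall among the genes without TATAAA, which does not show that they lack a TATA box. Sequence past the windows, where a TATA box of Mt1 or Mt2 would not be seen, was not read.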
